A study of Mus musculus with 8 samples.

Results

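The genes described here are 10 members of the NF-kB system: the 5 subunits Nfkb1, Nfkb2, Rela, Relb and Rel, and 5 inhibitors, Nfkbia, Nfkbib, Nfkbie, Tnfaip3 and Nfkbiz. They are 10 of the 21938 protein-coding genes annotated on the assembled mouse chromosomes. Every peak of H3K56ac that touched one of these genes, or the 20 kb on either side of it, was taken from the merged peak set of muscle stem cells (MuSCs). This gave 66 peaks of the 105600 in the set, 28 at the subunits and 38 at the inhibitors.

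The study used chromatin immunoprecipitation and sequencing (ChIP-seq) of H3K56ac, an acetyl mark on lysine 56 in the core of histone H3, to map the mark across the genome of MuSCs with and without SIRT6, a deacetylase that removes it. The 8 libraries fall into 4 groups of 2: H3K56ac and input (chromatin sequenced without immunoprecipitation) from Control mice, and H3K56ac and input from Sirt6mKO mice. Both genotypes were on a C57BL/6 background. The study calls its control cells wild type, and elsewhere shows controls as Sirt6 fl/fl mice without Cre. Which applies to these libraries is not given. The crosses that gave Sirt6mKO mice also included a YFP reporter strain. Sirt6mKO mice carry Sirt6 alleles with exons between loxP sites and Cre recombinase from the Pax7 promoter (Pax7-ICNCre pos Sirt6 fl/fl), whose constant activity removes Sirt6 from the muscle lineage. MuSCs were freshly isolated. By the study's methods, cells bearing Sca1, CD45 or CD31 were depleted, and MuSCs were sorted by Integrin-a7 and CD34 or by a fluorescent reporter. Which gate served these libraries is not given, and the stated purity of the sort was incomplete. The labels give neither sex nor age, and the study states that adult males were used.

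One list of intervals, merged over libraries, was analysed. Its score was 0 in every row, so a peak has a position and a width but no height, no genotype and no replicate. The study states the reads of each library, but the list ties no peak to a library or its depth, and Sirt6mKO could not be set against Control. Every value below is a description of the merged set, without a test, and a wide peak may join narrower peaks of different libraries. Among marker genes of the labelled cell type, 12 of 12 had a promoter peak, between 2720 and 33642 bp wide. Among markers of other cell types that muscle holds, 2 of 4 endothelial, 2 of 3 fibro-adipogenic and 4 of 4 myofiber genes had one. Of the immune genes, Cd68 (2636 bp) and Csf1r (1786 bp) had one, and Ptprc (which encodes CD45), Adgre1, Itgam and Cd3e had none. The endothelial genes Cdh5 and Tie1 and the fibro-adipogenic gene Ly6a had none. Where present, promoter peaks were 1139 and 3440 bp wide at endothelial genes and 854 to 4349 bp at myofiber genes. At the fibro-adipogenic genes Pdgfra and Dpt they were 4396 and 9775 bp wide. The Dpt peak was wider than the promoter peak of any NF-kB member described here. The part of other cells in the peaks of the NF-kB genes was not tested.

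NF-kB transcription factors are dimers of Rel-family proteins. In resting cells IkB proteins bind most dimers and hold them in the cytoplasm. Receptors for tumor necrosis factor, interleukin 1 and microbial products activate the IkB kinase complex, which marks IkB for destruction and frees the dimers to enter the nucleus. The dimers then bind kappaB sequences, and several inhibitor genes are among their targets, which closes a negative feedback loop. A second, noncanonical route processes the Nfkb2 product p100 into p52, which pairs with RELB. In skeletal muscle NF-kB signaling is known for its roles in wasting and inflammation and for its influence on myogenic differentiation.

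To show the sequence that lies under these peaks, the 250 bases before the transcription start site (TSS) are given for 5 member genes. These are the genes with a kappaB match in a RefSeq promoter window, which 7 of the members have. The sequences were taken from the RefSeq promoter table (GRCm38.p6, the same build as mm10) and run 5′ to 3′ on the strand of the gene. Capitals mark exact matches, on either strand, to the kappaB consensus of 10 bases; where 2 matches overlap, the capitals run through both.
Nfkb2, plus strand, chr19:46304487-46304736: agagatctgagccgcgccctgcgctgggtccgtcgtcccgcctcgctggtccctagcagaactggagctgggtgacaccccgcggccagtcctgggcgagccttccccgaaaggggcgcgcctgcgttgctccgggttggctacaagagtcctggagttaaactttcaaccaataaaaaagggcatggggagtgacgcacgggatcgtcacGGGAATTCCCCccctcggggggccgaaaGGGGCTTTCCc
Rel, minus strand, chr11:23770970-23771219: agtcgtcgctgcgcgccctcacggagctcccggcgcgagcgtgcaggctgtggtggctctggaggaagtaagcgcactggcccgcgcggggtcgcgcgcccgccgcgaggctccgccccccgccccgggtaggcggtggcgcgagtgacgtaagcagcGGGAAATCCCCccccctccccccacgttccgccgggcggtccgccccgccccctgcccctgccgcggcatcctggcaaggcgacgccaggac
Nfkbia, minus strand, chr12:55492648-55492897: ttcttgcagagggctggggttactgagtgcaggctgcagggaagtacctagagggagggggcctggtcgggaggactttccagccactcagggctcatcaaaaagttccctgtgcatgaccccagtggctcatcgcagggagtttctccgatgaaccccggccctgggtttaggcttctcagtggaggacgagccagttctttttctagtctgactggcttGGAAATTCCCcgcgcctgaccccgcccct
Nfkbie, plus strand, chr17:45555450-45555699: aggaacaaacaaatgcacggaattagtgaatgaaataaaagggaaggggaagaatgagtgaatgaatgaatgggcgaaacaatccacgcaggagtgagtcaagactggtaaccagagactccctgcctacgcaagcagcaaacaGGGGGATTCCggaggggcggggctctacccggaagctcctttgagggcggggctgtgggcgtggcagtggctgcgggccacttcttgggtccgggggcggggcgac
Tnfaip3, minus strand, chr10:19015411-19015660: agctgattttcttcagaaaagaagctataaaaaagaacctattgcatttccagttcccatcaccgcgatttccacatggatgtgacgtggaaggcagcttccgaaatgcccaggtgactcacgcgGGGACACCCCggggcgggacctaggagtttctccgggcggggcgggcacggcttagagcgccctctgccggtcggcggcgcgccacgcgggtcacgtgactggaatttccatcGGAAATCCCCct

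All 10 genes had an H3K56ac peak at a promoter, that is, within 3 kb of a TSS, compared with 67.8% of protein-coding genes. All 10 also had the TSS of their first-numbered transcript, used below as the TSS, inside a peak. A promoter peak of at least 5 kb was present at 6 of 10 members, Nfkb1, Rela, Nfkbia, Nfkbib, Tnfaip3 and Nfkbiz, compared with 16.5% of protein-coding genes. At Nfkbiz this was not the peak over the TSS, and at Nfkbib the peak also held TSSs of the neighbor Sirt2. At least 25% of the gene body lay in peaks at 7 of 10 members, compared with 23.9% of protein-coding genes. The median share of the window (gene and 20 kb flanks) in peaks was 25.3% over the members, and 9.53% over all protein-coding genes. These backgrounds include genes without a promoter peak, which all members have. The median share of the gene body in peaks was 7.82% over all protein-coding genes and 15.8% over the 14872 with a promoter peak. Over the members it was 35.6%. The share of the window in peaks ranged from 5.56% at Rel to 43.6% at Nfkbie. The number of peaks in the window ranged from 1 at Rel to 14 at Nfkb1.

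The subunits come first, beginning with the large precursor proteins. Nfkb1 encodes p105, which is processed to the DNA-binding subunit p50 and as a precursor also acts as an IkB (ENSMUSG00000028163.17, chr3:135584655-135691547, minus strand). It is the longest member, 106.893 kb, and had 14 peaks in its window, 10 of them in the gene. The peak over its TSS was 9378 bp wide (chr3:135685571-135694948) and reached 3402 bp upstream and 5975 bp downstream, over exon 1 and into intron 1. Its width was at the 95.4 percentile of the widest promoter peaks of the 14872 protein-coding genes that have one. Further peaks of 1165, 1242, 455 and 2199 bp followed in intron 1. A peak of 4929 bp then covered exon 2, from 17867 to 22795 bp after the TSS, together with the TSS of another Nfkb1 transcript.

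Deeper in Nfkb1 the peaks were sparse. A cluster of 3533, 812 and 709 bp lay in intron 6, between 54744 and 62011 bp from the TSS. The next 42.264 kb held no peak, until one of 1873 bp over the last exon, number 25. Past the gene, 4 peaks of 5151, 1393, 5635 and 776 bp stood between 108555 and 124504 bp from the TSS. No other protein-coding TSS lies in this window, and 12 of the 14 peaks were within 3 kb of no protein-coding TSS. Of the gene body 21.4% was covered, against a median of 7.22% for the 1157 protein-coding genes within 20% of its length, with or without a promoter peak.

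Nfkb2 encodes p100, the precursor of p52 and the hinge of the noncanonical route (ENSMUSG00000025225.15, chr19:46304320-46312385, plus strand). This compact gene of 8.066 kb had 6 peaks in its window. A single peak of 4391 bp (chr19:46302900-46307290) ran from 1844 bp upstream to 2546 bp downstream of the TSS. It took in exons 1 to 6 of 23 and held the TSSs of all annotated Nfkb2 transcripts. A small peak of 505 bp covered exons 13 and 14. With both, 43.1% of the gene was covered, the highest share among the subunits. Psd, Fbxl15, Cuedc2 and Gbf1 also start in the window. Of its 6 peaks, 3 were near TSSs of Psd, Fbxl15 or Cuedc2 and not near one of Nfkb2, and none was near that of Gbf1.

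Rela encodes p65, the main transactivating subunit of the canonical route (ENSMUSG00000024927.8, chr19:5637483-5648130, plus strand, 10.648 kb). Its promoter peak of 5728 bp (chr19:5633865-5639592) extended further upstream, 3618 bp, than into the gene, 2109 bp, and covered exons 1 to 4 of 11. The next 7.524 kb of the gene were free of peaks. A peak of 3046 bp covered exon 11 and ran on past the 3′ end, within 3 kb of a TSS of the neighbor Sipa1. That peak adds to the 29.3% of the Rela gene body in peaks. Only 1 of the 5 window peaks was a Rela promoter peak, and 3 were at promoters of Sipa1 or Pcnx3.

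Relb and Rel had the fewest peaks in their windows and the smallest covered shares of the gene body. Relb encodes the partner of p52 (ENSMUSG00000002983.17, chr7:19606217-19629438, minus strand, 23.222 kb). Its promoter peak of 3386 bp (chr7:19627538-19630923) covered exons 1 and 2 of 11, and the remaining 21.321 kb of the gene held none. The other peak in the Relb window, 2165 bp wide, lay over TSSs of Clasrp. Rel encodes c-Rel, best known from lymphocytes (ENSMUSG00000020275.9, chr11:23736847-23770970, minus strand, 34.124 kb). Its only peak was 4118 bp wide (chr11:23768231-23772348) and covered exon 1 of 10, leaving 31.384 kb of the gene free. This peak stood alone: the neighboring peaks in the set were 99847 and 120713 bp away. The covered shares of these genes were 8.19% at Relb and 8.03% at Rel. For protein-coding genes of similar length the medians were 9.40% and 8.45%. Both genes were thus close to the middle of their length class, whereas the other 8 members were above it. These classes include genes without a promoter peak, which all members have.

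Among the inhibitors, Nfkbia encodes IkBα, the classical feedback inhibitor that is resynthesized after each wave of NF-kB activity (ENSMUSG00000021025.8, chr12:55489410-55492647, minus strand). It is the shortest member, 3.238 kb. A single peak of 5583 bp (chr12:55489669-55495251), reaching 2604 bp upstream and 2978 bp downstream of the TSS, covered all 6 exons and 92.0% of the gene. Only the last 259 bp lay outside it. Downstream of the gene came peaks of 603, 3285, 2193, 602, 912 and 2190 bp, from 4821 to 24482 bp after the TSS. The pair of 3285 and 2193 bp was nearly continuous. A peak of 817 bp stood upstream. No other protein-coding gene starts in the window, so 7 of its 8 peaks were within 3 kb of no protein-coding TSS, as at Nfkb1.

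Tnfaip3 encodes A20, a ubiquitin-editing enzyme that shuts down signaling upstream of the IkB kinase and is itself induced by NF-kB (ENSMUSG00000019850.11, chr10:19000910-19015657, minus strand, 14.748 kb). Its promoter peak of 6587 bp (chr10:19009839-19016425) lay almost wholly inside the gene, 5571 bp downstream against 1015 bp upstream of the TSS, over exons 1 and 2 of 9. Only 141 bp separated it from a peak of 4364 bp over exons 3 to 6, and a peak of 508 bp covered exon 7. Joined across gaps of less than 1 kb, these 3 peaks form one domain of 11943 bp. The covered share of the gene body was 72.5%, at the 97.8 percentile of the 2354 protein-coding genes within 20% of its length. This was the highest rank for its length among the 10 members. Upstream of this domain the next peak was 45494 bp away. Joined in the same way, the peaks at the TSSs of Nfkb1 and Nfkbib form wider domains, of 13660 and 12372 bp.

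Nfkbiz encodes IkBζ, an atypical nuclear IkB that acts with p50 on secondary response genes and can activate as well as inhibit (ENSMUSG00000035356.17, chr16:55811375-55838899, minus strand, 27.525 kb). It had 2 promoter peaks of similar width. One of 4624 bp (chr16:55836000-55840623) covered the TSS and exons 1 and 2 of 14. The other, 5027 bp (chr16:55818627-55823653), lay 15246 to 20272 bp inside the gene, over exons 3 to 6 and over the TSS of another Nfkbiz transcript. Small peaks of 599, 499 and 647 bp made up the rest of its gene body, of which 35.1% was covered. A second peak over the TSS of another transcript was likewise present at Nfkb1 and at Tnfaip3, where the peak over exons 3 to 6 held it.

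Nfkbib and Nfkbie encode IkBβ and IkBε, further cytoplasmic IkB proteins. Nfkbib (ENSMUSG00000030595.15, chr7:28758251-28767512, minus strand, 9.262 kb) had the widest promoter peak of all members, 9625 bp (chr7:28764440-28774064). It extended 7424 bp upstream of the TSS and 2200 bp into the gene. The upstream reach is shared with Sirt2, which encodes another deacetylase of the sirtuin family and is transcribed in the opposite direction. A TSS of Sirt2 lies at -95 bp from that of Nfkbib, and 4 Sirt2 TSSs lie in this peak. The share of the peak that belongs to either gene cannot be told apart. A further Sirt2 TSS at -9064 bp lay in a peak of 2223 bp that began only 8 bp beyond. The covered share of Nfkbib was 38.1%.

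Nfkbie (ENSMUSG00000023947.8, chr17:45555703-45563169, plus strand, 7.467 kb) had the narrowest promoter peak of the inhibitors, 3466 bp (chr17:45554232-45557697), over exon 1 of 6. A peak of 692 bp over exon 2 began 106 bp further on, and together they covered 36.0% of the gene. Its window held 11 peaks, the most of any inhibitor, and 43.6% of it was covered. However, 5 of the 11 were at promoters of its neighbors Slc35b2, Tmem151b and Hsp90ab1, including one of 5606 bp at Hsp90ab1, which encodes a cytosolic chaperone. High coverage of the window was therefore not a property of the Nfkbie promoter alone.

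To compare subunits with inhibitors, the widest promoter peak of each gene was taken. Subunit widths were 3386 bp at Relb, 4118 at Rel, 4391 at Nfkb2, 5728 at Rela and 9378 at Nfkb1. Inhibitor widths were 3466 bp at Nfkbie, 5027 at Nfkbiz, 5583 at Nfkbia, 6587 at Tnfaip3 and 9625 at Nfkbib. The ranges overlapped almost fully. The median of the subunits, 4391 bp, was below that of the inhibitors, 5583 bp, a log2 difference of -0.35. The SD of log2 width between the genes was 0.57 for subunits and 0.54 for inhibitors (n = 5 genes each), and the difference was not tested. Widths of at least 5 kb were found at 2 of 5 subunits and 4 of 5 inhibitors. At Nfkbiz that width was reached only by the peak further inside the gene, since the peak over the TSS was 4624 bp wide. The peak at Nfkbib is shared with Sirt2. Counting all covered bases within 5 kb of the TSS gave medians of 5662 bp and 5763 bp, a log2 difference of -0.03. Both medians of the widest peak were above that of the 14872 protein-coding genes that have such a peak, 3430 bp.

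**Figure D1:**
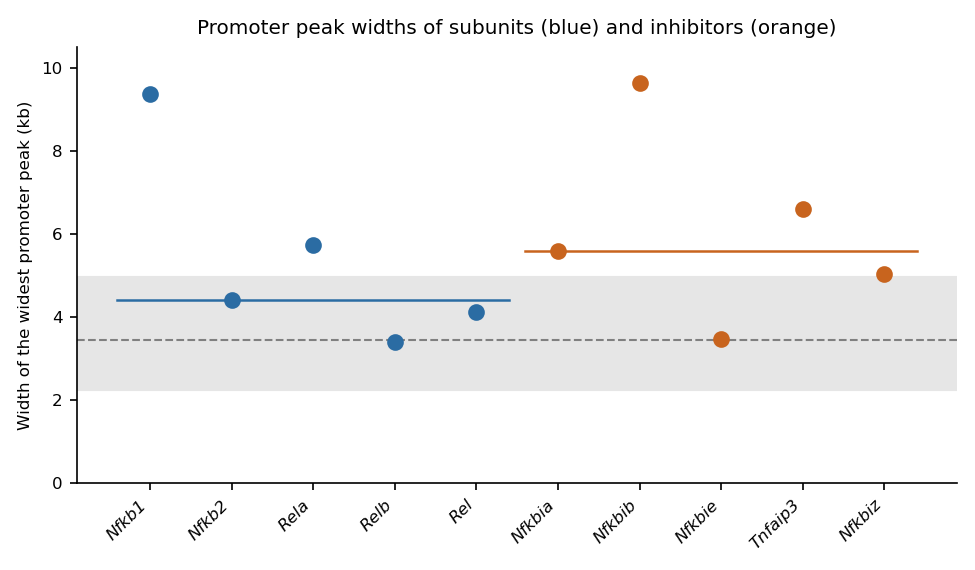
Width in kb of the widest promoter peak of each member (points; blue subunits, orange inhibitors) with the median of each group (line); the dashed line and grey band are the median and quartiles of the 14872 protein-coding genes that have one. The groups overlap, from 3386 to 9378 bp for subunits and from 3466 to 9625 bp for inhibitors.

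The covered share of the gene body differed more. It was 8.03% at Rel, 8.19% at Relb, 21.4% at Nfkb1, 29.3% at Rela and 43.1% at Nfkb2. At the inhibitors it was 35.1% at Nfkbiz, 36.0% at Nfkbie, 38.1% at Nfkbib, 72.5% at Tnfaip3 and 92.0% at Nfkbia. Nfkb2 was the only subunit within the range of the inhibitors, and all 5 inhibitors but only 2 of 5 subunits reached 25%. The medians were 21.4% (SD 14.9, n = 5) and 38.1% (SD 26.1, n = 5), a difference of -16.7 percentage points. This value depends on which inhibitors are counted, since it was -33.9 without Nfkbiz and -32.8 without Nfkbib.

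Gene length moved with this difference. The subunit genes had a median length of 23.222 kb and the inhibitor genes one of 9.262 kb. The part of length in the difference was not tested. Within a fixed 10 kb on either side of the TSS, the medians were 28.3% for subunits and 49.9% for inhibitors, with ranges that overlapped, 16.9 to 59.9% and 26.1 to 61.5%. This window also counts peaks at promoters of neighbors. At Nfkbib (61.5%) these were peaks at Sirt2, and at Nfkbie (39.8%) peaks at Tmem151b and Slc35b2. At Rela (30.5%) the edge of a peak at Sipa1 was included. Among protein-coding genes within 20% of their own length, the inhibitors ranked at percentiles of 80.4 (Nfkbie), 84.9 (Nfkbib), 89.5 (Nfkbiz), 91.2 (Nfkbia) and 97.8 (Tnfaip3). The subunits ranked at 45.4 (Relb), 47.7 (Rel), 78.5 (Rela), 80.4 (Nfkb1) and 86.6 (Nfkb2). Ranked by length class, Nfkb2 was within the range of the inhibitors, Nfkb1 and Rela were at or just below its lower end, and Relb and Rel were well below it.

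**Figure D2:**
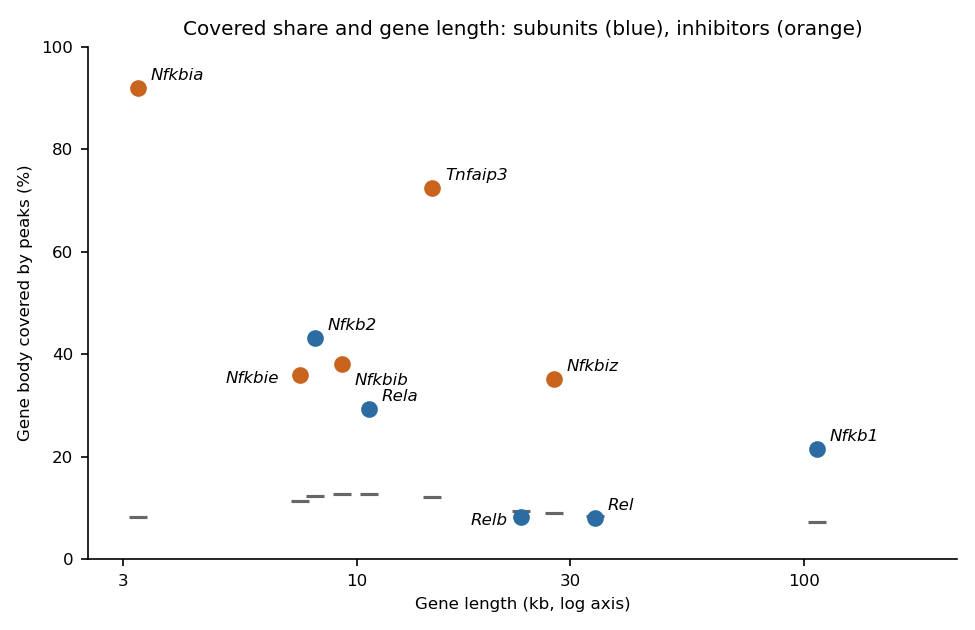
Share of the gene body in H3K56ac peaks (percent) against gene length (kb, log axis) for subunits (blue) and inhibitors (orange). Grey dashes are the median of protein-coding genes within 20% of that length, with or without a promoter peak. Tnfaip3 (72.5%) and Nfkbia (92.0%) stand highest above their dashes, and Relb and Rel lie slightly below theirs.

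The 66 peaks had a median width of 1609.5 bp and ranged from 236 to 9625 bp, compared with a median of 974 bp over all peaks. At least 5 kb was reached by 13.6% of them, and by 6.00% of all peaks. Of the 66, 14 were within 3 kb of a TSS of a member only, 16 of a TSS of another protein-coding gene only, 2 of both and 34 of neither. Most of those with neither were at Nfkb1 and Nfkbia, with 12 and 7. At Nfkb2, Rela, Relb, Nfkbib and Nfkbie, window counts included promoter peaks of neighbors.

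RefSeq promoter windows were searched for the kappaB consensus, the DNA element that NF-kB dimers bind, and the sequences shown above are those of 5 windows chosen because they held a match. The consensus is 3 G, a purine, any base, A or T, 2 pyrimidines and 2 C, and only exact matches on either strand were counted. A match is a description of the letters and not a bound site. The RefSeq table held 10 windows, of 250 bases before and 50 after a start, for 7 of the members, and all 10 lay wholly inside H3K56ac peaks. Nfkb1, Relb and Nfkbiz were not in it. By gene, 5 of these 7 members had a match in a window, 2 of 3 subunits and 3 of 4 inhibitors, with none in the windows of Rela and Nfkbib. Of the 16522 protein-coding genes with a window, 5.73% had a match. Nfkb2 had 3 windows with a match, of which 2 overlap and share a match.

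The matches lay at different distances from the start. At Nfkbia, the letters GGAAATTCCC stood at -29 from the RefSeq TSS, on the opposite strand. At Nfkb2, overlapping matches began at -39 and -38 and another, GGGGCTTTCC, at -11. The other Nfkb2 windows, of starts further into the gene, held GGAATGTCCC at -236 and a shared GGGACTTTCC, at 11 bases after one start and at -225 from the next. At Rel, overlapping matches began at -92 and -91. Nfkbie had GGGGGATTCC at -106. Tnfaip3 had GGAAATCCCC at -12 and GGGACACCCC at -125. Thus both the inhibitors known for feedback, Nfkbia and Tnfaip3, and the subunits Nfkb2 and Rel had matches before the start and inside an H3K56ac peak.

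The whole peak over each TSS was searched in the same way, which adds the 3 genes without a window. All 10 peaks held at least 1 match, 33 in all, or 0.580 per kb. Of the widest promoter peaks of protein-coding genes, 12928 distinct intervals, 37.4% held a match, at 0.149 per kb. A wider peak has more room for a match, and the 10 member peaks had a median width of 5103.5 bp. For the widest promoter peak of protein-coding genes with one, the median was 3430 bp. The number of matches was 7 at Nfkbia, 6 at Nfkb2, 4 each at Nfkbib and Nfkbie, 3 each at Relb and Rel, 2 each at Nfkb1 and Tnfaip3 and 1 each at Rela and Nfkbiz. Per kb of peak, Nfkb2 (1.37), Nfkbia (1.25) and Nfkbie (1.15) were highest and Rela (0.175) lowest. Match density did not rise with peak width. The widest peaks, at Nfkbib and Nfkb1, held 0.416 and 0.213 matches per kb, and the narrowest, at Relb and Nfkbie, 0.886 and 1.15. The order was not strictly inverse, since Nfkbiz (4624 bp) held 0.216 and Nfkbia (5583 bp) 1.25. Nor did match density separate subunits from inhibitors.

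**Figure D3:**
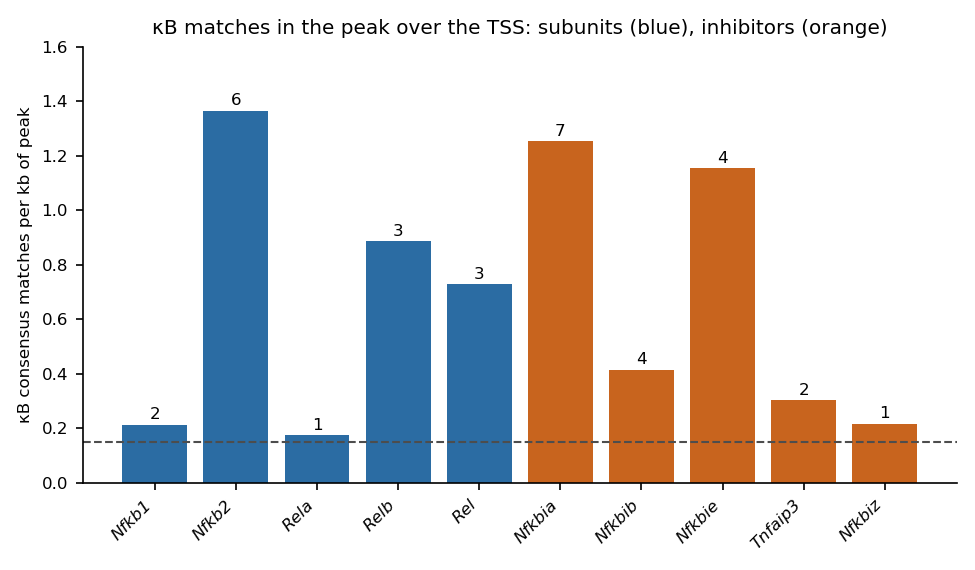
Exact kappaB consensus matches per kb in the H3K56ac peak over the TSS of each member (bars from 0; blue subunits, orange inhibitors; the number of matches stands above each bar). The dashed line is 0.149 matches per kb in the widest promoter peaks of protein-coding genes. All 10 bars are above it, for which 1 match is enough at Rela and Nfkbiz.

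The wider pathway was examined with lists of 64 genes. Of these 61 had a promoter peak, or 95.3%, beside 67.8% of protein-coding genes, with a median width of 3781 bp over those with one, against 5305 bp for the 10 members. All 21 adaptors and kinases, which carry the signal from receptor to IkB, had one, as had all 11 ubiquitin regulators and other brakes and both other IkB genes, Bcl3 and Nfkbid. Of the receptors and ligands, 13 of 14 had one, the exception being Il1b, which encodes the cytokine interleukin 1β. Of the target genes, 14 of 16 had one, and Ptgs2, which encodes cyclooxygenase 2, and Ccl20, a chemokine gene, had none. The widest were at Birc2, an E3 ligase gene, with 15212 bp, at Vcam1, an adhesion molecule gene also used as a MuSC marker, with 12012 bp, and at Traf2, an adaptor gene, with 10028 bp. The narrowest was 496 bp, and a peak counted here may lie outside the gene or at a promoter of a neighbor. A width of at least 5 kb was reached by 18 of the 64 and by 6 of the 10 members. Over all protein-coding genes, with or without a promoter peak, the share was 16.5%.

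**Figure D4:**
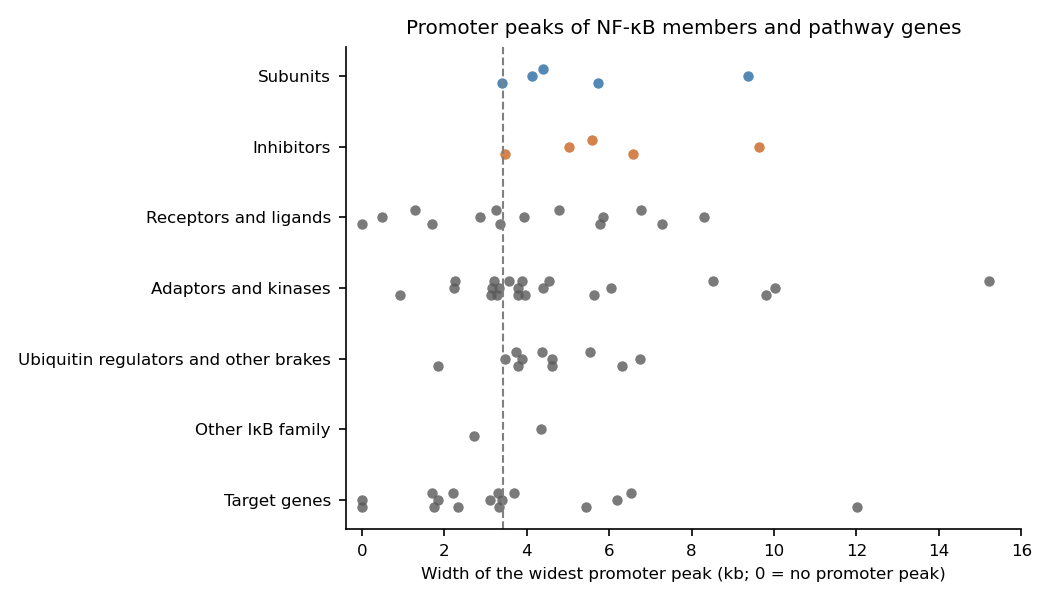
Width in kb of the widest promoter peak for the subunits (blue), inhibitors (orange) and 64 other pathway genes (grey, 1 point per gene, spread vertically for visibility; 0 where there was no promoter peak). The dashed line is the median of the protein-coding genes that have one, 3430 bp; all but 1 of the members lie above it, and Relb at 3386 bp lies just below.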

How the data were processed

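The deposited file was 1 list of H3K56ac intervals in MuSCs, from a series of 8 libraries sequenced on an Ion Torrent Proton instrument. The authors trimmed reads with Trim Galore, aligned them to mm10 with bowtie (uniquely aligned reads only), discarded duplicates by Picard, called peaks with MACS2, removed ENCODE blacklisted regions and merged overlapping peaks with GenomicRanges. The submitters' processing notes also name FastQC, SAMtools and deepTools. Which libraries entered the merge is not given in the sources used here. The score column of the deposited list is 0 throughout, and 0 columns held values per sample. Merging widens intervals, and the requirement for a single alignment lowers the chance of a peak in repeats.

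Intervals were overlapped (at least 1 bp) with GENCODE vM21 genes on GRCm38, counting from 1, in Python 3.11.15 with numpy 2.4.6, and plotted with matplotlib 3.10.9. Functions were tested on simulated data. Samples were grouped by genotype and antibody, but no comparison between groups, test or interval was possible, because the list holds no counts. Named were the 10 members, pathway genes without a promoter peak and the 3 widest of the pathway lists; Bcl3 and Nfkbid were named as the whole of their list. One item of the immune marker list is not reported here. Members and lists were chosen with earlier results of these data known. Alternatives were other flanks (10 and 50 kb), a promoter of 1 kb, protein-coding transcripts only, joined intervals, intervals of at least 500 bp, other windows for width and coverage, and leaving out single genes.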

Additional observations from a re-analysis of the deposited data

How the results depend on the processing

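There were 31 alternatives over 6 results, of which 4 were chosen after seeing the data. Only the differences between subunits and inhibitors could change direction, and 0 of their alternatives did. The counts and the share of the windows in peaks could not. For width, several alternatives returned the same medians as the main setting. The number of peaks around the 10 genes was 124 with flanks of 50 kb, because the windows are longer, and 47 with flanks of 10 kb. The log2 difference in promoter peak width between subunits and inhibitors ranged from -0.47 to -0.27, and it was -0.03 for covered bases within 5 kb of the TSS. The difference in covered gene body ranged from -33.9 percentage points without Nfkbiz to -15.0 with intervals of at least 500 bp. It was -10.7 for the gene with 20 kb flanks and -21.6 for the fixed window around the TSS, and both windows also count peaks at promoters of neighbors. No paired analysis was possible because intervals merged over libraries have no value for single replicates, and for the same reason no replicate could be left out. Peak height and the depth behind each interval are not in the list, so width cannot be read as strength.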
